A study of Mus musculus with 6 samples.

Results

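The 10 genes described here mark the endothelium of the liver sinusoids, and they were taken from the count table by their symbols (Stab1, Stab2, Lyve1, Oit3, Kdr, Clec4g, Ptprb, Flt1, Flt4 and Fcgr2b). All 10 were among the 54232 genes in the table, each on 1 row, and all 10 passed the filter on low counts that left 13304 genes for testing. The libraries came from livers of Nogo-/- mice (3 libraries, called knockout 1, 2 and 4) and of wild-type littermates (3 libraries, called wild type 2, 4 and 11), numbered as in their labels. Mice of both genotypes were 8 weeks old and ate normal chow. The labels give no sex and do not say which part of the Nogo gene was removed or whether a library pools animals. The study's title names insulin signalling as its subject, and the endothelium was measured only as part of whole liver tissue.

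Liver sinusoids are lined by endothelial cells with open pores and no continuous basement membrane, so that plasma reaches the hepatocytes directly. These cells are the body's main scavenging endothelium and clear hyaluronan, modified proteins and small immune complexes from the blood through stabilins, lectins and Fc receptors. Their differentiated state is kept by VEGF from neighbouring cells and by bone morphogenetic proteins, and is lost in a process called capillarization. Nogo is a reticulon, a family of proteins that shape the tubules of the endoplasmic reticulum, and its Nogo-B isoform is known to be made in endothelial cells.

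Rtn4, the gene of Nogo, followed the labels. Its level was 4.64, 8.22 and 4.69 CPM (counts relative to the TMM-scaled library total) in knockout 1, 2 and 4, against 40.5, 52.9 and 56.0 CPM in wild type 2, 4 and 11. The log2 fold change was −3.08 ± 0.26 (SE; edgeR quasi-likelihood test, adjusted p = 0.00101). Library totals ran from 17654412 to 18118811 counts in knockout and from 17568223 to 20902369 in wild type, and mitochondrial genes took 11.8% to 28.6% of the counts in knockout and 6.17% to 6.90% in wild type.

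Of the 10 marker genes, 5 fell in knockout liver and 0 rose. Those that fell were the hyaluronan receptor gene Lyve1, Oit3, the VEGF receptor gene Kdr, the lectin gene Clec4g and the phosphatase gene Ptprb. Their levels in knockout were 0.311 to 0.618 of those in wild type. The stabilins Stab1 and Stab2, the other VEGF receptors Flt1 and Flt4, and the Fc receptor gene Fcgr2b did not pass the test, with unadjusted p-values of 0.0732 and above. A gene was called at an adjusted p under 0.05 over all tested genes. By that rule 17.0% of all tested genes were called, 8.29% lower and 8.76% higher in knockout. The 5 called members were also those whose 3 knockout levels all lay below the 3 wild-type levels, which held for 19.2% of all tested genes. Of the 2268 called genes 2252 had groups that did not overlap, in either direction, so this adds little to a call. In bulk tissue, fewer endothelial cells and less RNA per endothelial cell cannot be told apart.

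**Figure D1:**
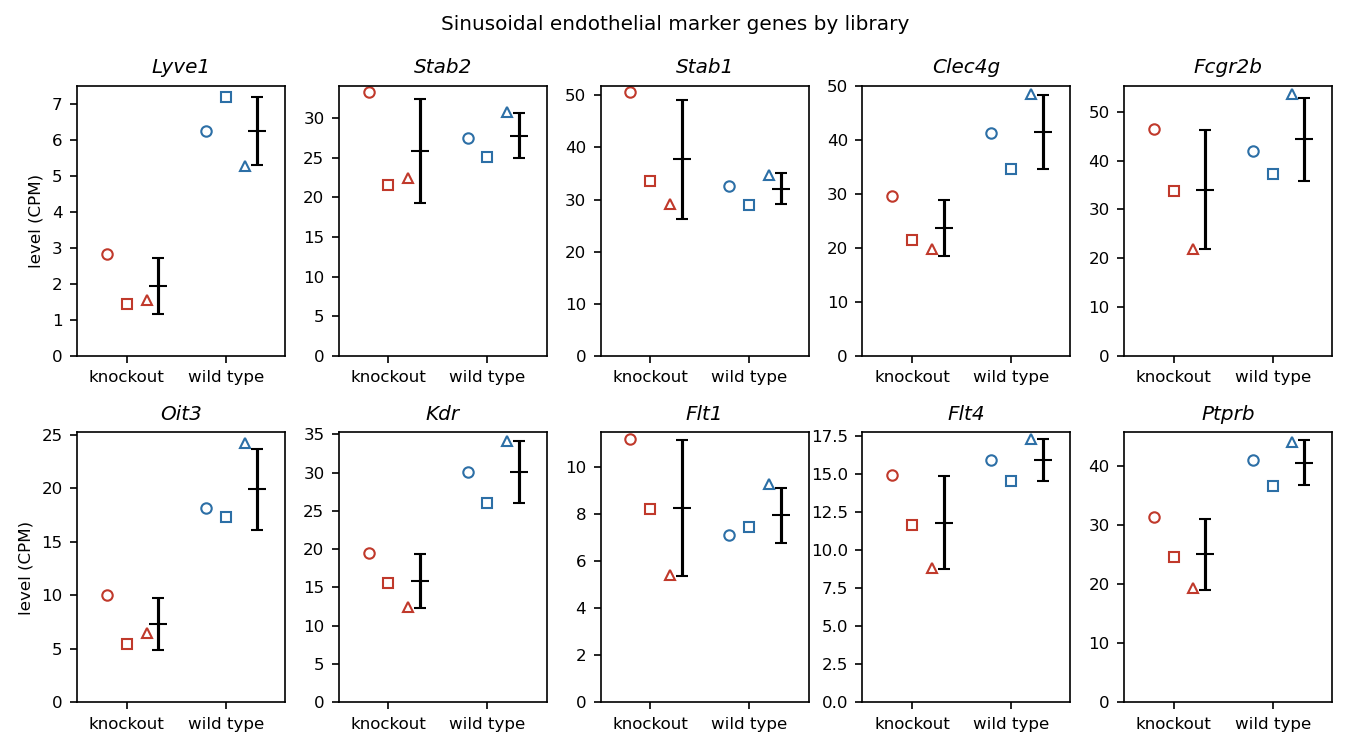
Level of each marker gene in CPM (vertical axis, from 0) in the 3 knockout libraries (red) and the 3 wild-type libraries (blue); circles, squares and triangles are knockout 1, 2 and 4 and wild type 2, 4 and 11, and black marks are mean ± SD. The knockout points lie below all wild-type points for Lyve1, Clec4g, Oit3, Kdr and Ptprb, and overlap them for the other 5 genes.

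Sequences just upstream of the transcription start are shown for genes on either side of this division, Clec4g and Kdr, which fell, and Stab1 and Stab2, which did not pass. They are the 250 bases before the start in RefSeq (GRCm38.p6, the mm10 coordinates), written 5′ to 3′ on the strand of the gene. Capitals mark AGGAAG, a core sequence of the ETS family of transcription factors, to which many endothelial regulators belong, in either orientation.
Clec4g, chr8:3720652-3720901, minus strand: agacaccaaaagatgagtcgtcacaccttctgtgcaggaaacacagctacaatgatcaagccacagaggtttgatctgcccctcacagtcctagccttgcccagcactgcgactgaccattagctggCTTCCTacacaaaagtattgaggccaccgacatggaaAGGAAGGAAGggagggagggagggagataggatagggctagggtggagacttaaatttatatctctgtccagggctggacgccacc
Kdr, chr5:75978456-75978705, minus strand: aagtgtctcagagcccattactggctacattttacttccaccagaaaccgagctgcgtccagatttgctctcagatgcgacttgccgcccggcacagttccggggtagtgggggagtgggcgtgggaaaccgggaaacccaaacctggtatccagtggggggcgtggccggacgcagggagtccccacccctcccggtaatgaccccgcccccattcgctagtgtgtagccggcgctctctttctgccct
Stab1, chr14:31168642-31168891, minus strand: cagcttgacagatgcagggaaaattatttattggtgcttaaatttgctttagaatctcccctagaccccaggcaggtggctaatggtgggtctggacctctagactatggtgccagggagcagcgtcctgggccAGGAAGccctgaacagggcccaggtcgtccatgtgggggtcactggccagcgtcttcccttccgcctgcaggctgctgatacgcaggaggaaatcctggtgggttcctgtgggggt
Stab2, chr10:87007943-87008192, minus strand: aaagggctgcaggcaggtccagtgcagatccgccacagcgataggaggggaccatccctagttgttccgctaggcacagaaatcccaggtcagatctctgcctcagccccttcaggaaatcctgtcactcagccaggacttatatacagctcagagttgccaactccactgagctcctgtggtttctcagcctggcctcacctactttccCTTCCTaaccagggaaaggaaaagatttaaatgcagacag

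The RefSeq promoter table held 7 of the 10 members (also Flt1, Flt4 and Fcgr2b). AGGAAG occurred on either strand in 4 of these 7 windows, and in 29.5% of the 32851 windows of the same length in the table. It was present in Clec4g, which has 3 matches, 2 of them overlapping, and in Flt1, Stab1 and Stab2. It was not in the windows of Kdr, Flt4 and Fcgr2b. AGATAA, a core of the GATA factors (GATA4 is known to direct sinusoidal endothelial identity), was in 0 of the 7 windows and in 9.99% of all windows.

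Among the receptors for hyaluronan and other scavenged ligands, Lyve1 fell and the stabilins did not pass the test. Lyve1 (chr7:110850607-110863239, minus strand) encodes a hyaluronan receptor that sinusoidal endothelium shares with lymphatic vessels. Its level was 2.85, 1.45 and 1.56 CPM in knockout 1, 2 and 4, against 6.27, 7.20 and 5.30 CPM in wild type 2, 4 and 11. It rested on raw counts of 43, 27 and 26 in knockout and 132, 135 and 114 in wild type, the fewest of the 10 genes. The groups did not overlap, and the highest knockout library, knockout 1, lay below the lowest wild-type library, wild type 11. The log2 fold change was −1.69 ± 0.32 (SE, 95% interval −2.39 to −0.99, edgeR adjusted p = 0.00981), the largest fall among the members.

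Stab2 (chr10:86841198-87008025, minus strand) encodes stabilin-2, the main clearance receptor for circulating hyaluronan. Its level was 33.4, 21.6 and 22.5 CPM in knockout 1, 2 and 4, against 27.6, 25.2 and 30.8 CPM in wild type 2, 4 and 11. Knockout 1 was the highest of all 6 libraries and knockout 2 and 4 the lowest. Its log2 fold change of −0.11 had an interval of −0.56 to 0.34 (edgeR adjusted p = 0.741). Stab1 (chr14:31139013-31168641, minus strand) encodes stabilin-1, a scavenger receptor that macrophages also make. It was at 50.6, 33.5 and 29.1 CPM in knockout 1, 2 and 4, against 32.6, 29.0 and 34.8 CPM in wild type 2, 4 and 11. Knockout 2 and 4 lay within the range of wild type and knockout 1 above it. The log2 fold change was 0.23 (interval −0.25 to 0.72, edgeR adjusted p = 0.487), and it was −0.04 without knockout 1. Nt5dc2 overlaps Stab1 on the other strand, and short predicted transcripts lie opposite Stab2, and the strandedness of the counts is not given in the sources used here.

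Clec4g and Fcgr2b encode receptors of the lectin and Fc classes. Clec4g (chr8:3707064-3720651, minus strand), known as LSECtin, binds glycans on pathogens and on T cells. Its level was 29.7, 21.6 and 19.9 CPM in knockout 1, 2 and 4, against 41.4, 34.7 and 48.6 CPM in wild type 2, 4 and 11. The groups did not overlap, with a log2 fold change of −0.81 ± 0.21 (SE, edgeR adjusted p = 0.0262). Gm16553 lies on the other strand within its span.

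Fcgr2b (chr1:170958617-170976547, minus strand) encodes the inhibitory Fc gamma receptor, which on sinusoidal endothelium takes up small immune complexes. It was at 46.4, 33.8 and 22.0 CPM in knockout 1, 2 and 4, against 42.0, 37.3 and 53.7 CPM in wild type 2, 4 and 11. Knockout 1 lay within the range of wild type, and knockout 2 and 4 lay below it, and its log2 fold change was −0.38 (interval −0.96 to 0.20, edgeR adjusted p = 0.330). It shares 6.95% of its 50-base words with transcripts of other genes, the highest share among the members, so some of its reads may be lost or split. Kupffer cells and B cells also make Fcgr2b. The summed level of 14 Kupffer cell markers, none at 0 in any library, was 284 to 643 CPM in knockout and 420 to 549 CPM in wild type. That of 7 B cell markers, none at 0 either, was 29.5 to 68.9 CPM in knockout and 13.6 to 20.6 CPM in wild type. Their part in the values of Stab1 and Fcgr2b was not tested.

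Oit3 was lower in all 3 knockout libraries. Oit3 (chr10:59422958-59441778, minus strand) encodes a protein with a zona pellucida domain whose RNA is found mainly in liver and marks sinusoidal endothelium in single-cell data. Its level was 10.1, 5.48 and 6.44 CPM in knockout 1, 2 and 4, against 18.1, 17.3 and 24.2 CPM in wild type 2, 4 and 11. The groups did not overlap, with a log2 fold change of −1.45 ± 0.26 (SE, interval −2.01 to −0.88, edgeR adjusted p = 0.00831).

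The VEGF receptor genes differed in their values. Kdr (chr5:75932827-75978458, minus strand) encodes the receptor that carries most VEGF-A signalling in endothelium. Its level was 19.5, 15.6 and 12.5 CPM in knockout 1, 2 and 4, against 30.1, 26.0 and 34.1 CPM in wild type 2, 4 and 11. The groups did not overlap, and the log2 fold change was −0.92 ± 0.21 (SE, edgeR adjusted p = 0.0162). Flt1 (chr5:147561604-147726011, minus strand) encodes a receptor that binds VEGF-A tightly, signals weakly and can act as a decoy. It was at 11.2, 8.22 and 5.42 CPM in knockout 1, 2 and 4, against 7.12, 7.47 and 9.29 CPM in wild type 2, 4 and 11. The knockout libraries spread from below to above the wild-type range. The log2 fold change was 0.05 (interval −0.55 to 0.66, edgeR adjusted p = 0.908), and its sign turned in 9 of 16 alternative fits.

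Flt4 (chr11:49609263-49652739, plus strand) encodes the receptor for VEGF-C and VEGF-D, best known from lymphatic vessels. It was at 14.96, 11.7 and 8.85 CPM in knockout 1, 2 and 4, against 15.96, 14.6 and 17.3 CPM in wild type 2, 4 and 11. Knockout 1 lay within the wild-type range and the other two knockout libraries below it, with a log2 fold change of −0.43 (interval −0.92 to 0.05, edgeR adjusted p = 0.188). Ptprb (chr10:116275523-116389535, plus strand) encodes the endothelial receptor phosphatase VE-PTP, which restrains the angiopoietin receptor TIE2 and stabilises junctions. It was at 31.3, 24.5 and 19.4 CPM in knockout 1, 2 and 4, against 41.1, 36.5 and 44.1 CPM in wild type 2, 4 and 11. The groups did not overlap, and its log2 fold change was −0.70 ± 0.20 (SE, edgeR adjusted p = 0.0406), the smallest of the 5 falls. The predicted transcripts Gm47625 and Gm26495 lie within Ptprb on its strand.

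**Figure D2:**
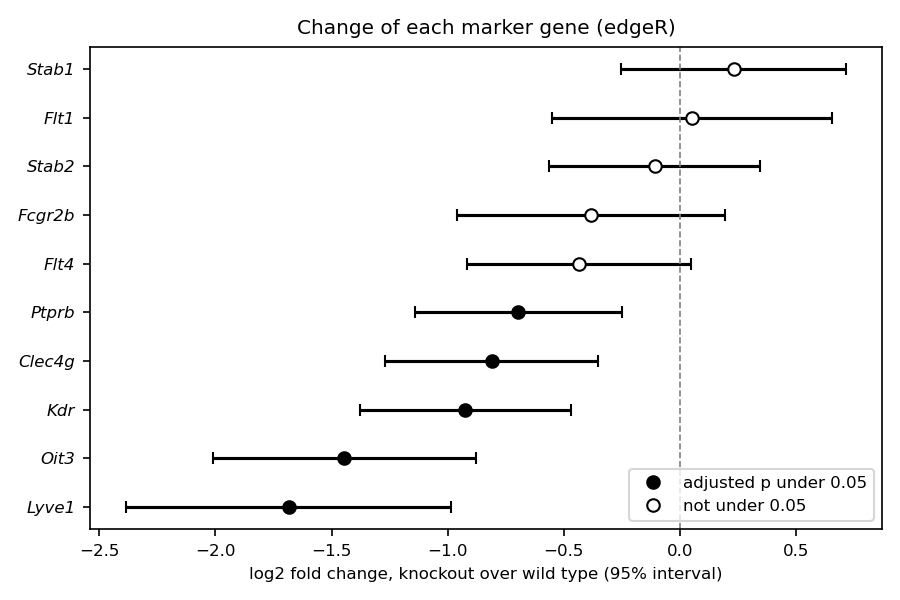
Log2 fold change of each marker gene, knockout over wild type (horizontal axis), with its 95% interval from edgeR; filled points had an adjusted p under 0.05. The values run from 0.23 for Stab1 to −1.69 for Lyve1, and the intervals of Stab1, Flt1, Stab2, Fcgr2b and Flt4 include 0.

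Some ratios between members within a library were computed as a description. They were chosen after the values had been seen and are given with no test. The ratio of Kdr to Flt1 in CPM was 1.74, 1.90 and 2.31 in knockout 1, 2 and 4, against 4.22, 3.49 and 3.68 in wild type 2, 4 and 11. The ratio of Oit3 to Stab2 averaged 0.280 ± 0.024 in knockout and 0.711 ± 0.068 in wild type (SD, n = 3 each). Kdr over Stab1 averaged 0.427 ± 0.041 in knockout and 0.934 ± 0.043 in wild type. Stab1 over Stab2 averaged 1.45 ± 0.14 in knockout and 1.15 ± 0.03 in wild type. Each of these 4 ratios had groups that did not overlap, and none depends on how the libraries are scaled. Since they were picked from many possible pairs with the values known, this separation adds no support.

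On levels per kilobase of exon (CPM per kb, over all annotated exons of a gene), Clec4g was the highest of the 10 in both genotypes. It stood at 9.64 ± 2.12 CPM per kb in knockout and 16.9 ± 2.8 in wild type, and its range did not meet that of the next gene, Fcgr2b, in either. In knockout the order then ran Fcgr2b, Stab1, Stab2, Oit3, Ptprb, Kdr and Flt4, from 5.88 ± 2.11 down to 1.44 ± 0.37 CPM per kb, with each neighbouring pair overlapping. In wild type it ran Fcgr2b and Oit3, which overlapped, then Kdr, Stab2, Stab1 and Ptprb, which overlapped at 3.04 to 3.33 CPM per kb on average, and then Lyve1 and Flt4. Flt1 was the lowest in both, at 0.613 ± 0.214 CPM per kb in knockout and 0.589 ± 0.086 in wild type. In knockout its range overlapped that of Lyve1, at 0.669 ± 0.266 CPM per kb, whereas Lyve1 averaged 2.14 ± 0.33 CPM per kb in wild type. Oit3 thus ranked 5 in knockout and 3 in wild type.

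The knockout libraries differed among themselves in the members. Knockout 1 was the highest of the 3 knockout libraries in all 10 genes, and knockout 4 was the lowest in 7 and knockout 2 in 3. The median difference of the 10 genes from the wild-type mean, in log2(CPM + 0.5), was −0.23, −0.57 and −1.01 in knockout 1, 2 and 4, against 0.01, −0.14 and 0.17 in wild type 2, 4 and 11. Over all tested genes the medians of the 6 libraries lay between −0.01 and 0.02. The mitochondrial share was 28.6%, 19.7% and 11.8% in knockout 1, 2 and 4, and the library with the lowest members was the one nearest to wild type in it. When this share was added to the edgeR fit as a covariate, it called 0 of the 10 members and 0 of all tested genes, while 8 members and 1146 genes had an unadjusted p under 0.05. Other tools were not run with it. The share did not overlap between the genotypes, at 6.17% to 6.90% in wild type, so this fit cannot separate the share from genotype. With 0 genes called, Rtn4 was not called either. With this covariate the values of the 5 genes that fell were −1.28 for Ptprb to −2.44 for Lyve1, further from 0 than without it. They carry the same limit. The other members were then at −1.31 for Fcgr2b, −1.075 for Flt4, −0.84 for Flt1, −0.60 for Stab2 and −0.46 for Stab1. The labels and file header give no batch or date.

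Leaving out 1 library changed how many members were called. The count was 5 without knockout 1, 2 without knockout 2 and 5 without knockout 4, where 5.90%, 7.20% and 29.4% of all tested genes were called. It was 2 without wild type 2, 4 without wild type 4 and 3 without wild type 11, where 6.03%, 4.57% and 12.3% were called. Lyve1 and Oit3 were called in all 6 of these fits, Kdr in 4, Clec4g in 3 and Ptprb in 2. Since the groups of these 5 genes did not overlap, their sign in such fits was fixed in advance. With knockout 4 alone against the 3 wild-type libraries, where the lone knockout library is assumed to vary like wild type, 0 members and 0.178% of all genes were called, while 7 members had an unadjusted p under 0.05. Only edgeR was run on this set. The values were then −1.99 for Lyve1, −1.63 for Oit3, −1.26 for Kdr, −1.07 for Ptprb and −1.06 for Clec4g. Those of the other members were −1.01 for Fcgr2b, −0.85 for Flt4, −0.55 for Flt1, −0.30 for Stab2 and −0.14 for Stab1.

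**Figure D3:**
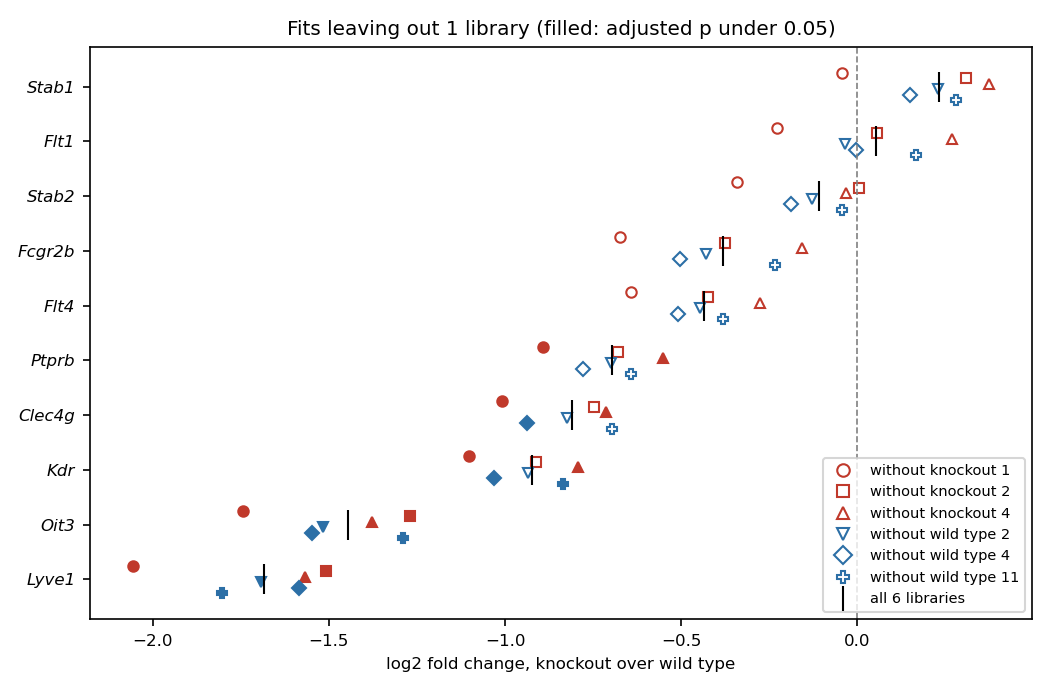
Log2 fold change of each marker gene, knockout over wild type (horizontal axis), in the 6 fits that each left out 1 library, with the value from all 6 libraries as a black bar; filled symbols had an adjusted p under 0.05. Lyve1 and Oit3 are filled in all 6 fits, and the fit without knockout 1 gave the lowest value for each gene.

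Other genes of sinusoidal endothelium gave mixed results. Of 11 further markers, all tested, 2 fell and 0 rose, 18.2% against 17.0% over all tested genes. They were Aqp1, the water channel aquaporin-1, at 21.5 ± 6.4 CPM in knockout and 62.2 ± 11.3 CPM in wild type (log2 fold change −1.54 ± 0.24 SE), and F8, coagulation factor VIII, which in liver comes from sinusoidal endothelium, at 3.25 ± 0.63 CPM in knockout and 8.81 ± 0.90 CPM in wild type (−1.43 ± 0.24). The median over the 11 was −0.44, with 9 below 0, against a median of 0.01 over all tested genes, and in 5 of the 11 all knockout levels lay below the wild-type levels, against 19.2% of all tested genes. The number that fell was 4 with library totals, 4 with the replicate block, 3 without knockout 1 and 3 with DESeq2, and with no low-count filter 5 fell and 1 rose. The mannose receptor gene Mrc1 (−0.56, edgeR adjusted p = 0.110), Gpr182 (−0.60, 0.0907), Gata4 (−0.29, 0.334) and Maf (0.70, 0.115) did not pass. These 4 were named after their values were seen.

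Genes of endothelium in general had a median log2 fold change near that of all tested genes. Of 24 tested, 1 rose and 2 fell, which is 12.5% against 17.0% over all tested genes, with a median of −0.05 against 0.01. Clec14a, an endothelial surface lectin, was at 3.42 ± 1.05 CPM in knockout and 7.83 ± 1.36 CPM in wild type (−1.19 ± 0.28 SE), and Erg, an ETS transcription factor of endothelium, at 2.23 ± 0.76 CPM in knockout and 4.67 ± 0.67 CPM in wild type (−1.06 ± 0.32). Sox17, a transcription factor of arterial endothelium, rose (4.75 ± 1.55 CPM in knockout and 2.02 ± 0.06 CPM in wild type, 1.23 ± 0.31). Of these 24 genes 0 were called in the edgeR fits without knockout 2, wild type 2 or wild type 11, and 1, which fell, without knockout 1 or wild type 4. With the replicate block 2 fell and 0 rose. The endothelial junction genes Pecam1 and Cdh5, named after their values were seen, were at −0.48 and −0.27 (edgeR adjusted p = 0.164 and 0.509). The summed level of the 10 members divided by that of the 24 genes was 0.859, 0.754 and 0.824 in knockout 1, 2 and 4, against 1.10, 1.16 and 1.17 in wild type 2, 4 and 11. Divided by Pecam1 alone, the sum averaged 22.0 ± 2.6 in knockout and 22.0 ± 0.4 in wild type, and by Cdh5 alone 14.8 ± 3.9 in knockout and 16.5 ± 1.6 in wild type. Without Eng, the gene of endoglin, in the list, the ratio to the list was 1.36, 1.09 and 1.16 in knockout 1, 2 and 4, against 1.4, 1.5 and 1.5 in wild type 2, 4 and 11. The groups still did not overlap, but they came closer, and relative to Pecam1 or Cdh5 alone they overlapped.

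Capillary and large-vessel endothelium has markers that sinusoids gain in capillarization. Of 7 tested, the main edgeR fit called 0, where 17.0% of all tested genes were called. A list this short cannot tell a count of 0 from that share. DESeq2 and limma-voom also called 0. In edgeR 0 of these markers had an unadjusted p under 0.05, with a median of 0.20. Their adjusted p-values began at 0.238, for Ly6c1 (0.998 on the log2 scale, below 1 CPM in both genotypes), and Cav1 was at −0.42 (0.325). The summed level of this list was 29.8 to 42.3 CPM in knockout and 30.1 to 40.7 CPM in wild type.

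**Figure D4:**
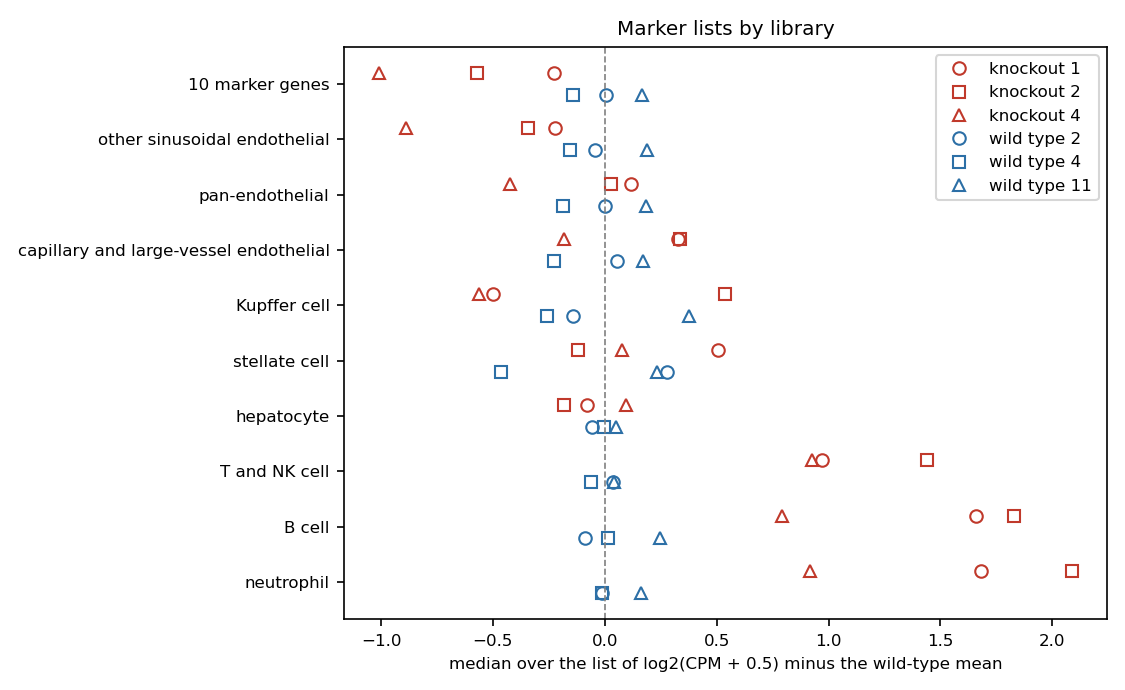
Median over each marker list of log2(CPM + 0.5) minus the wild-type mean (horizontal axis), for the 3 knockout libraries (red) and the 3 wild-type libraries (blue). Knockout 4 has the lowest median for the 10 marker genes, at −1.01, and for the other sinusoidal genes, at −0.89, while the T and NK cell, B cell and neutrophil lists are higher in all 3 knockout libraries.

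Of 11 tested genes of the VEGF and TIE pathway, 1 rose and 2 fell, 27.3% against 17.0% over all tested genes. The number called was 1, which fell, without knockout 1, knockout 2, wild type 2 or wild type 4. Without wild type 11 and with the replicate block 2 fell and 0 rose, while 3 rose and 2 fell without knockout 4. Nrp2, a co-receptor for VEGF-C that pairs with Flt4, fell to 6.41 ± 0.60 CPM in knockout, against 14.5 ± 3.0 CPM in wild type (−1.17 ± 0.22 SE). Esm1, a proteoglycan that VEGF induces in endothelium, fell as well (edgeR adjusted p = 0.0296), at 0.165 ± 0.183 CPM in knockout, near the floor of 3 counts, and 1.17 ± 0.46 CPM in wild type. Nrp1, the co-receptor for VEGF-A that pairs with Kdr, rose, at 221, 137 and 68.4 CPM in knockout 1, 2 and 4 and 55.1, 61.1 and 63.3 CPM in wild type 2, 4 and 11 (1.25 ± 0.34). Its level in knockout 4 was close to wild type 11. The ligand gene Vegfa missed the threshold at 0.68 ± 0.22 (edgeR adjusted p = 0.0564), and Tek, the gene of TIE2, on which Ptprb acts, at −0.67 ± 0.25 (0.0830), and both were named after their values were seen.

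Bone morphogenetic protein signalling reaches sinusoidal endothelium through BMP9 and the receptor ALK1. Of 15 tested genes of this pathway, 4 rose and 0 fell, 26.7% against 17.0% over all tested genes, with a median of 0.18. The number called was 1, which rose, without knockout 1, knockout 2, wild type 2, wild type 4 or wild type 11, and 5 without knockout 4. With library totals 1 rose and 1 fell, with the replicate block 2 rose and 1 fell, and with DESeq2 4 rose and 1 fell. Id1, an early target of the pathway in many cell types, was at 19.0, 22.9 and 11.9 CPM in knockout 1, 2 and 4, against 6.65, 5.23 and 4.37 CPM in wild type 2, 4 and 11 (1.73 ± 0.27 SE, edgeR adjusted p = 0.00586). Id2 (1.05 ± 0.28), Id3 (0.66 ± 0.18) and the signal transducer gene Smad1 (0.78 ± 0.23) rose with it. Hepatocytes and other cells express these genes too, so the values do not show in which cells they rose.

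For the functions that the members serve, related genes were counted. Of 4 tested genes of hyaluronan turnover, 1 fell and 0 rose, where 17.0% of all tested genes were called, and Cemip, Has1 and Has2 were at 0 in every library. The one that fell was Hyal1, a lysosomal hyaluronidase, at 5.78 ± 1.68 CPM in knockout and 11.2 ± 0.6 CPM in wild type (−0.95 ± 0.24 SE). It was not called with the replicate block or without knockout 1, knockout 2, wild type 2 or wild type 4. Of 13 tested scavenger receptor genes outside the 10, 1 rose and 4 fell, 38.5% against 17.0% over all tested genes. The number called was 0 without wild type 4, 1 without knockout 1 and 2 without wild type 2, and with the replicate block 2 rose and 2 fell. It was 6 with DESeq2 and 4 with limma-voom or the filter of 1 CPM. In edgeR it was also 4 with DESeq2 size factors or with TMM without mitochondrial genes. Colec12, an endothelial scavenger receptor with a collagen stalk, fell (23.1 ± 3.1 CPM in knockout and 40.8 ± 4.8 CPM in wild type, −0.82 ± 0.18). Scarb1 (−0.80 ± 0.22), Scarb2 (−0.97 ± 0.24) and Cd36 (−0.71 ± 0.22) fell as well. Cd36 lay just under the threshold (edgeR adjusted p = 0.0497). Scarf1, which takes up modified lipoproteins in endothelium, rose (22.9 ± 14.5 CPM in knockout and 6.37 ± 1.07 CPM in wild type, 1.84 ± 0.40). Scarb1, Scarb2 and Cd36 are also made by hepatocytes. Of 8 tested Fc gamma receptors and partners of Fcgr2b, the main edgeR fit called 0, where 17.0% of all tested genes were called. DESeq2 and limma-voom also called 0. In the main edgeR fit 0 had an unadjusted p under 0.05, and the median was 0.28. Without knockout 4, however, edgeR called 1 of them, which rose, and 3 had an unadjusted p under 0.05. It also called 1, which rose, when low-count genes were kept or when the replicate block was added.

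Markers of the neighbouring cell types had medians between −0.06 and 0.22. Of 14 Kupffer cell markers 1 fell and 0 rose (7.14% against 17.0% over all tested genes, median −0.06). Their median difference from the wild-type mean, in log2(CPM + 0.5), was −0.50, 0.54 and −0.56 in knockout 1, 2 and 4, and 4 fell without knockout 2. Of 14 stellate cell markers the main edgeR fit called 0, where 17.0% of all tested genes were called. It had 3 of them at an unadjusted p under 0.05 (median 0.22). Limma-voom called 0 of them and DESeq2 1. In edgeR 1 of them rose without knockout 4 or wild type 11. The same number rose when low-count genes were kept or when the replicate block was added. The Kupffer gene that fell was Folr2, a folate receptor, at 0.292 ± 0.239 CPM in knockout, near the floor of 3 counts, and 3.32 ± 1.41 CPM in wild type. Its level in knockout 1, 0.066 CPM, lay below that library's floor of 0.199 CPM. Of 11 hepatocyte markers 1 fell and 0 rose (9.09% against 17.0% over all tested genes, median −0.06). With DESeq2 2 fell and 1 rose. The tested genes outside the 10 whose pattern over the 6 libraries lay closest to the median pattern of the members were Mmrn2, Sh2d4a and Cavin2, with root mean square differences of 0.056, 0.064 and 0.075 in log2 units. Among the members the difference was smallest for Ptprb, at 0.057, and largest for Lyve1, at 0.513.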

How the data were processed

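RNA sequencing was done on 3 liver libraries of knockout mice and 3 of wild-type mice. The authors deposited raw counts per gene, as whole numbers, for 1 column per library. RNA was extracted with a Qiagen kit and libraries were made with a SMARTer kit, per the labels' protocols. Per the submitters' processing notes, mm10 was the genome build. How reads were aligned and counted, and whether by strand, is not given in the sources used.

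Counts were tested with edgeR 4.0.16 in R 4.3.3 (quasi-likelihood F test, TMM scaling, filterByExpr, no covariate), with Benjamini-Hochberg adjustment over 13304 genes, two-sided. The fold changes are knockout over wild type, and the SE of each was derived from its F statistic. DESeq2 1.42.0, limma-voom 3.58.1, other scalings, filters and sets of libraries were alternatives. A further alternative, the replicate block, added the library number as a term. Knockout 1 and wild type 11 share their number with no other library, so the block's genotype values rest on libraries 2 and 4. Coordinates, exon lengths and shared 50-base words came from GENCODE M21. Library totals ran from 17568223 to 20902369, and 3 counts corresponded to 0.139 to 0.199 CPM, a floor for counting error only. Pairs of libraries of 1 genotype differed by more than sampling noise (chi-square per degree of freedom, 21.0 to 170.6), so each counted as 1 sample. The labels call the samples livers of mice but do not number animals, so p-values measure only sample spread, which may be partly technical.

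The members and lists were chosen with earlier results of these data known. Named genes were all members, Rtn4, up to 4 called genes of each list by smallest p (2 where none was called), and the 3 genes of most similar pattern, unless the text says otherwise. Cd36 was named after its values were seen.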

Additional observations from a re-analysis of the deposited data

How the results depend on the processing

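The count of 5 members called was also 5 with DESeq2, limma-voom, other scalings and other low-count filters. It was 5 too with the replicate block, which compares only libraries 2 and 4 of each genotype. In those fits 2746 of 13298 genes were called with DESeq2, 2407 of 13304 with limma-voom, 3330 of 23915 with no filter, 2184 of 12183 with a filter of 1 CPM, 1686 with the block and 2256 to 2282 under other scalings. It was 0 with the mitochondrial share as a covariate and 0 with knockout 4 alone, and 2 to 5 when 1 library was left out. Over all tested genes the counts were 0, 25 and 630 to 4046 in these fits, against 2268. With library totals the median log2 fold change of all genes was −0.16, with 690 genes called higher and 1566 lower. With TMM it was 0.01, with 1165 called higher and 1103 lower. The mitochondrial share did not overlap between the genotypes, so the fit with that covariate cannot separate it from genotype.

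The sign of Flt1 turned with library totals (−0.14), limma-voom (−0.0051), no low-count filter (−0.0011), the replicate block (−0.12), the mitochondrial covariate (−0.84) and knockout 4 alone (−0.55), and without knockout 1 (−0.23), wild type 2 (−0.03) or wild type 4 (−0.0036), within a range of −0.23 to 0.27 over the fits that left out 1 library. That of Stab1 turned with the mitochondrial covariate (−0.46), knockout 4 alone (−0.14) and without knockout 1 (−0.044, range −0.044 to 0.37). That of Stab2 turned without knockout 2 (0.0045, range −0.34 to 0.0045). None of these values was called, and the cause was not tested.

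Both genotypes have libraries numbered 2 and 4, but nothing in the labels pairs them. The deviations of same-numbered libraries from their group means correlated at −0.05 and 0.06 across genes. The replicate block called 1686 genes, 5 of them members.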

Other observations

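Endothelial genes of the liver zones were also counted, 6 of endothelium around central veins and 6 of endothelium near portal tracts. The main edgeR fit called 0 in each list, where 17.0% of all tested genes were called. Lists this short cannot tell a count of 0 from that share. DESeq2 and limma-voom also called 0 in each. In the main edgeR fit 0 had an unadjusted p under 0.05, and the medians were 0.0038 (central) and −0.18 (portal). In the central list Wnt9b, which feeds the pericentral hepatocyte program, was at 0.49 (adjusted p = 0.322) and Thbd, thrombomodulin, at −0.74 (0.154). In the portal list Ntn4 was at −0.56 (0.211) and Efnb2, an arterial ephrin, at −0.60 (0.223). Lymphatic endothelium also makes Lyve1 and Flt4. Of its markers Pdpn had 0 counts in every library, Mmrn1 had 8 to 10 counts in knockout and 5 to 6 in wild type, and the Ccl21a row ENSMUSG00000095320 had 2 to 9 counts in knockout and 0 to 1 in wild type, too few to be tested. Prox1, which was tested, is also made by hepatocytes and was at 0.28 (0.531).

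Of 7 tested genes of T and NK cells (12 in the list) and 7 of B cells, 5 rose in both lists, as did 3 of 3 tested neutrophil genes (7 in the list), where 8.76% of all tested genes rose. The medians of these lists were 2.0, 1.92 and 1.97, and 0 of their genes fell. The number that rose in the T and NK cell list was 1 without wild type 4, 2 without wild type 2 and 3 without knockout 2 or wild type 11, and in the B cell list it was 4 to 7 and in the neutrophil list 2 to 4 when 1 library was left out. Ccl5 was at 2.56 ± 0.42 (SE) and S100a8 at 2.37 ± 0.42. Of 5 erythroid genes 1 rose (Hba-a2, 1.56 ± 0.37) and 1 fell (Alas2, −1.05 ± 0.26), 40% against 17.0% over all tested genes. Of these 5 genes 0 were called without knockout 1, wild type 2 or wild type 4. Of 5 tested cholangiocyte genes 1 fell and 0 rose, 20% against 17.0% over all tested genes. The one that fell was Epcam (−1.30 ± 0.38), which was not called when any 1 library was left out.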
